A study of Mus musculus with 12 samples.

Results

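The ribosomal protein genes encode the proteins of the cytosolic ribosome, and their non-coding transcripts were followed here in WT and 5 × FAD hippocampus and cortex. The members were all rows of the deposited transcript count table whose GENCODE M21 gene is protein coding and carries a ribosomal protein name (Rpl, Rps, Rplp0 to Rplp2 or Rpsa), with the ribosomal S6 kinases left out. They were 220 of the 48033 transcripts in the table and came from 66 of the 92 protein-coding genes with such a name, 38 of the large subunit with 134 transcripts and 28 of the small subunit with 86. The rule used only annotated gene types and names and no measured value, but it was set with earlier results of these data known. By annotated type, 163 members were retained introns, 54 were processed transcripts and 3 were protein coding, the latter being Rpl30 ENSMUST00000142643 and Rps10 ENSMUST00000155071 and ENSMUST00000152982. The label of a non-coding set therefore held for 217 of the 220 rows.

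There were 12 libraries in 4 groups of 3, made from the hippocampus and the cerebral cortex of 7-month-old WT and 5 × FAD mice, all labelled C57BL/6J, with no other treatment. The 5 × FAD line carries human transgenes with familial Alzheimer's disease mutations, which in this line are driven by the neuronal Thy1 promoter, and the WT mice were non-transgenic and equally old. Total RNA was depleted of ribosomal RNA and sequenced from both ends as stranded libraries. The table held 3517967 to 5014389 counts per library. App was not analysed here, so the transgene was not checked.

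The series states 2 females and 1 male in each group, but the counts of the sex-linked genes differed from that statement. Counts of Xist, the RNA that coats the inactive X chromosome, were 30468 to 46630 in the libraries numbered 1 and 2 of the 5 × FAD mice in both regions and 4 to 25 in the other 8 libraries. Counts of the Y-linked genes were 0 in those same 4 libraries and 1074 to 1661 in the others. Trem2, a receptor of microglia, followed the same libraries, with 688 to 1046 counts in 5 × FAD 1 and 2 and 87 to 248 in the other 8. It was the single gene of 7 microglial markers that had rows. Levels are given as CPM, a transcript's counts per 1000000 counts of its library, with the totals scaled by the trimmed mean of M-values (TMM). The tissue labels were checked with 6 hippocampal and 7 cortical marker genes. The 3 hippocampal markers with rows (Zbtb20, Spock1 and Lct) summed to 124 to 166 CPM in hippocampus and to 71.0 to 105 in cortex, and the 5 cortical ones to 79.0 to 110 and 112 to 187. Neither sum overlapped between the regions, but it was Zbtb20 that carried the first, and Spock1 alone was lower in hippocampus, with group means of 39.9 and 29.7 CPM against 48.9 and 45.2. Genotype is used as labelled. The libraries labelled 5 × FAD 3 had 164 Trem2 counts in hippocampus and 87 in cortex, beside 91 to 142 and 129 to 248 in WT. Genotype results are therefore also given without 5 × FAD 1 and 2, which leaves 1 library labelled 5 × FAD against 3 and assumes that the lone library varies like the WT group.

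Each ribosomal protein takes 1 defined place in the small or the large subunit, and cells make the set in near-equal amounts. The genes are short, transcribed at high rates and built of several small exons. Their messenger RNAs begin with a pyrimidine tract, the TOP motif, which places their translation under the control of mTOR, and several of their introns carry small nucleolar RNAs that guide the modification of ribosomal RNA. A retained intron transcript keeps intronic sequence between exons, and such RNA mostly stays in the nucleus or is degraded. Some ribosomal proteins, such as those of Rpl3, Rpl12 and Rps13, bind their own pre-mRNA and favour such unproductive splicing when in excess.

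The transcripts were first placed against the coding transcripts of the same genes. A whole intron of a coding transcript lay inside a member's exon in 83 of the 163 retained introns and in 14 of the 54 processed transcripts. The median share of bases outside all coding exons was 44.3% in the retained introns and 37.0% in the processed transcripts. Their median lengths were 632 and 550.5 bases. Only 47 of the 163 retained introns and 5 of the 54 processed transcripts started within 20 bases of an annotated coding start, so most rows begin elsewhere in the gene.

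The sequences below show where transcripts run through a splice site, with the first ones chosen for their results further down and Rps6 for its level. Those of Rpl11 and Rps6 are annotated as processed transcripts and the others as retained introns. Each is 24 bases of the transcript, 5′ to 3′, read from GENCODE M21 on GRCm38, with 12 bases on each side of a splice site that the spliced mRNA would have used. The capitals mark the GT that opens an intron or the AG that closes it, and the transcript runs through it.
Rpl9 ENSMUST00000128074, donor of a 777-base intron, chr5:65390376-65390399, minus strand: ggtgtcacgctgGTaagtcagccc
Rpl9 ENSMUST00000128074, acceptor of that intron, chr5:65389599-65389622, minus strand: tgtttgatgcAGggcttccgatac
Rpl11 ENSMUST00000125726, donor of a 252-base intron, chr4:136052958-136052981, minus strand: gcgcagaggccgGTacttcctgta
Rpl11 ENSMUST00000125726, acceptor of that intron, chr4:136052706-136052729, minus strand: ccctcttcgcAGcaagatcaaggg
Rpl5 ENSMUST00000140659, acceptor of an 848-base intron, chr5:107904705-107904728, plus strand: ttttcatcttAGtaccaaacgatt
Rpl6 ENSMUST00000138621, acceptor of a 1195-base intron, chr5:121208379-121208402, plus strand: tttttcctatAGggcctcttgtca
Rpl18 ENSMUST00000211425, donor of a 283-base intron, chr7:45719625-45719648, plus strand: ctgtcccgcatgGTtagtagtcag
Rps6 ENSMUST00000136174, donor of a 461-base intron, chr4:86857309-86857332, minus strand: gtcaagatgaagGTaggcgtcccc
The Rpl5 and Rpl6 transcripts start inside the intron whose acceptor is shown. Over the 202 members found to hold such an intron end, 151 of 154 distinct donor ends that lay inside a transcript read GT and 170 of 170 acceptor ends read AG. The 118 distinct introns kept whole had a median length of 253.5 bases and ran from 78 to 2369 bases.

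Small nucleolar RNA genes lay in 26 of the 66 genes, and 28 of the 220 transcripts held one within an exon, 27 of these being retained introns. Rpl5 ENSMUST00000140659 held Snord21, Rpl12 ENSMUST00000134912 held Snora65, and Rpl7a ENSMUST00000129673 held 2 of them. The median level per length was 9.49 CPM per kb in transcripts with such an RNA inside and 8.88 in those without. The values lay close together, and the difference was not tested.

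All 220 transcripts together took 0.374% to 0.415% of the counts in the WT hippocampus, 0.460% to 0.571% in the 5 × FAD hippocampus, 0.347% to 0.509% in the WT cortex and 0.416% to 0.498% in the 5 × FAD cortex. The CPM sums were 4117 ± 101 (SD, n = 3), 4962 ± 546, 4344 ± 811 and 4437 ± 422 in the same order. The hippocampal libraries did not overlap between genotypes, with 4191 as the highest WT value and 4489 as the lowest 5 × FAD value. The cortical libraries overlapped, and the lowest of all 12 sums, 3433, was WT cortex 3. As the tissue is bulk, fewer cells of a type and less RNA per cell cannot be told apart.

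**Figure D1:**
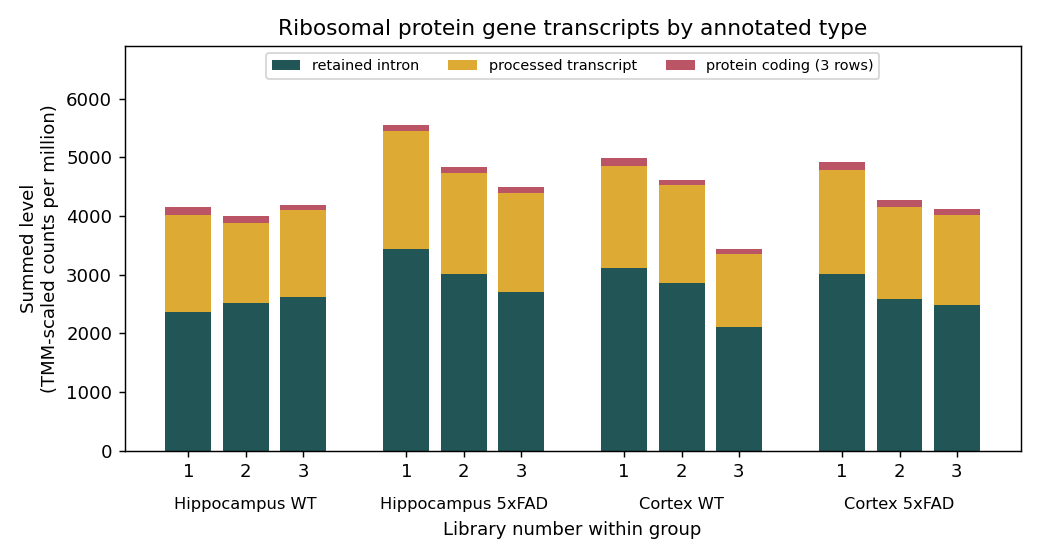
Summed level of the ribosomal protein gene transcripts in CPM on the y axis, for each of the 12 libraries on the x axis, with the annotated types stacked. The 3 hippocampal 5 × FAD bars, 4489 to 5559, stand above the 3 hippocampal WT bars, 4002 to 4191, and retained introns make up 57.0% to 63.1% of every bar.

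The balance of types varied little between the libraries. Retained introns gave 57.0% to 63.1% of a library's member counts, processed transcripts 33.9% to 39.7% and the 3 protein-coding rows 1.72% to 3.28%. Retained introns summed to 2504 ± 124 CPM in the WT hippocampus, 3052 ± 366 in the 5 × FAD hippocampus, 2699 ± 520 in the WT cortex and 2691 ± 276 in the 5 × FAD cortex. The processed transcripts had the same order of hippocampal groups, 1502 ± 148 in WT and 1808 ± 180 in 5 × FAD. No hippocampal library of either type overlapped between the genotypes. The 137 transcripts of the mitochondrial ribosomal protein genes, which serve the organelle's own ribosome, lay at 1408 ± 31 CPM in the WT hippocampus and 1388 ± 122 in the 5 × FAD hippocampus, and these libraries overlapped.

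A few genes held most of the signal. The 10 highest genes, with their rows summed, gave 56.5% of the member level, and in 53 of the 66 genes a single transcript held more than 50% of the gene's level. This is partly set by the number of rows, as 8 genes had 1 row and 18 had 2. Among the 40 genes with 3 rows or more it was true of 27. Rps6, the small-subunit protein phosphorylated by the S6 kinases, led with 547 CPM (372 to 748 over the 12 libraries). Rpl13a, which also acts outside the ribosome to silence inflammatory mRNAs, followed with 448 (323 to 578), then came Rpl7a with 341 (210 to 461) and further down Rps2 with 188 (103 to 288). Neighbours among these 4 overlapped in their ranges over the libraries. The lowest gene was Rpl19 with 2.43 CPM. 2 transcripts, 1 each of Rpl22l1 and Rps27, had 0 counts in all 12 libraries. Against library totals of 3517967 to 5014389, a count of 0 allows a level of up to 0.598 to 0.853 CPM (3 counts), before TMM scaling and for counting error only.

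**Figure D2:**
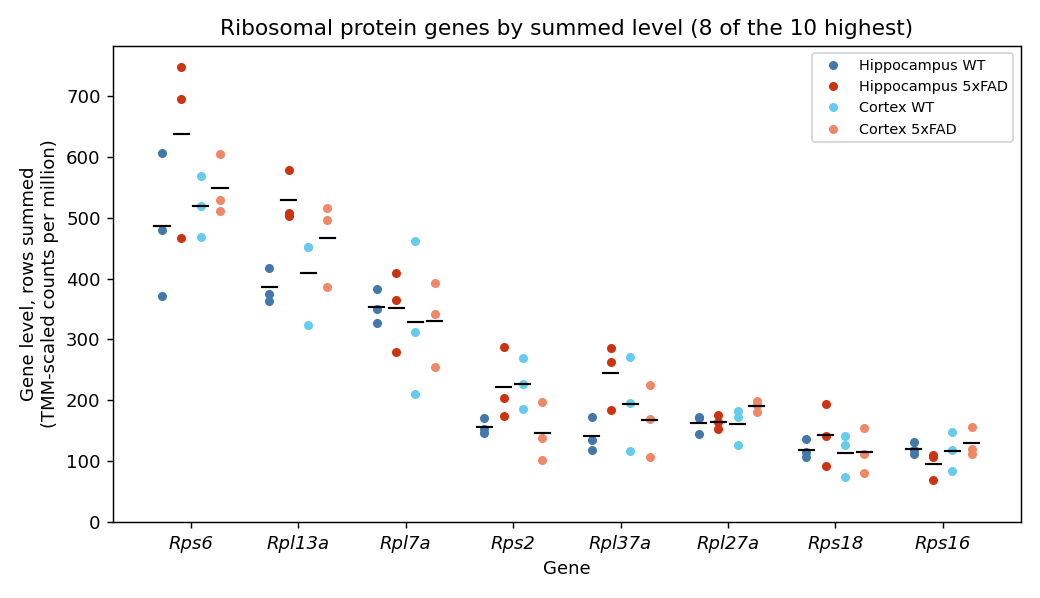
Level of 8 of the 10 highest genes, with their rows summed, in CPM on a linear y axis. Points are libraries, 3 per group, and bars are group means. Rps6 spans 372 to 748 over the 12 libraries and Rpl13a 323 to 578.

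Per length, which allows genes to be compared, Rpl13a ENSMUST00000209626 was highest with 504 CPM per kb, followed by Rps6 ENSMUST00000136174 with 442 and Rpl37a ENSMUST00000212432 with 277. The first 2 are processed transcripts and that of Rpl37a is a retained intron. The median over all members was 9.30 CPM per kb, so the leading transcripts stand far above the rest.

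**Figure D3:**
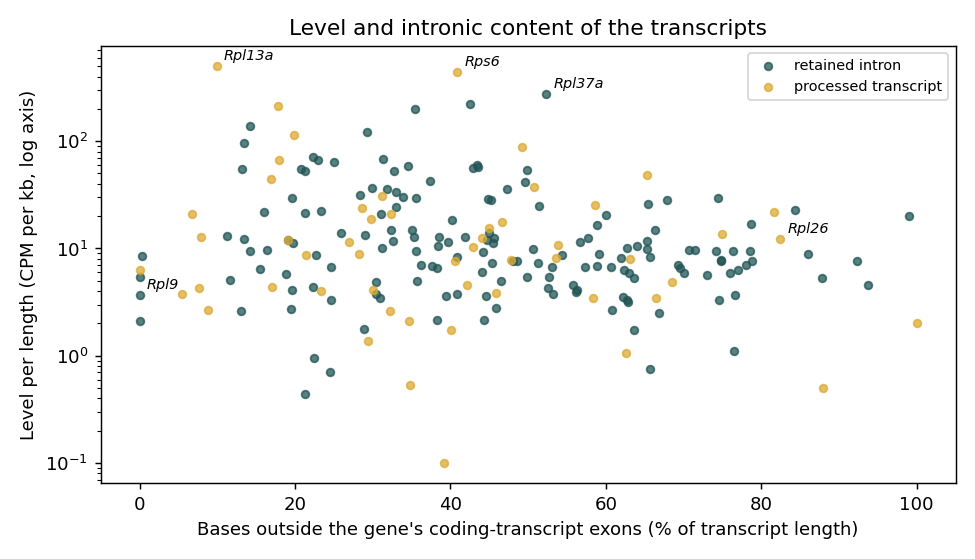
Each point is 1 transcript, with the share of its bases outside the gene's coding exons in percent on the x axis and its mean level in CPM per kb on a log y axis, coloured by type. The highest points, Rpl13a at 504 and Rps6 at 442 CPM per kb, are processed transcripts, and that of Rpl37a at 277 is a retained intron. The 3 protein-coding rows and the 2 rows at 0 are not drawn.

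In Rps6 ENSMUST00000136174 the counts were 2574, 1570 and 1944 in the WT hippocampus, 2803, 2720 and 1735 in the 5 × FAD hippocampus, 2009, 2542 and 1465 in the WT cortex and 2523, 1631 and 2160 in the 5 × FAD cortex. All groups overlapped. In the Rpl13a transcript ENSMUST00000209626 they were 1573, 1435 and 1570 in the WT hippocampus and 1863, 1749 and 1676 in the 5 × FAD hippocampus. These hippocampal groups did not overlap, with 333 ± 25.3 and 423 ± 30.1 CPM, and the log2 fold change of 0.36 ± 0.17 (SE) had an adjusted p of 0.674 by edgeR. This transcript overlaps the annotated gene Gm45713 on the same strand, so reads could be shared between them. In the Rpl37a retained intron ENSMUST00000212432, from a gene of a zinc-binding large-subunit protein, they were 617, 542 and 744 in the WT hippocampus and 1150, 1138 and 737 in the 5 × FAD hippocampus. The CPM groups, 139 ± 27.3 and 241 ± 54.3, did not overlap, since scaling puts the lowest 5 × FAD library above the highest WT one, and the log2 fold change was 0.81 ± 0.26 with an adjusted p of 0.612. The retained introns of Rpl27a and Rps16, large- and small-subunit genes, had these group means. For Rpl27a ENSMUST00000053298 they ran from 140 ± 6.46 CPM in the 5 × FAD hippocampus to 176 ± 8.31 in the 5 × FAD cortex, and for Rps16 ENSMUST00000152918 from 74.1 ± 9.35 in the 5 × FAD hippocampus to 96.3 ± 23.9 in the WT cortex. The leading transcripts of Rpl7a and Rps18 overlapped in all 4 pairwise comparisons, with group means of 198 to 239 CPM for Rpl7a ENSMUST00000137376 and 51.2 to 63.1 for Rps18 ENSMUST00000172799.

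The first comparison asked which transcripts differed between 5 × FAD and WT in the hippocampus. None of the 172 ribosomal protein gene transcripts tested passed an adjusted p-value of 0.05 by edgeR, against 4 of all 21894 transcripts, 0.0183%. At an unadjusted p-value under 0.05, 18 were higher and 1 was lower in 5 × FAD. The share among all tested transcripts was 4.08% higher and 3.5% lower, while 10.5% of the members were higher and 0.581% were lower. DESeq2 called 1 of the 172, Rpl6 ENSMUST00000138621, described below, and 127 of all 21894 transcripts. The median log2 fold change of the members was 0.24 and that of all transcripts was 0.02.

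The 18 transcripts came from 14 genes, 13 being retained introns and 5 processed transcripts. Their log2 fold changes ran from 0.60 to 3.63 and their adjusted p-values from 0.547 to 0.655. By type, the median was 0.27 over 136 member retained introns and 0.07 over all 12931 retained introns tested. It was 0.20 over 33 member processed transcripts and 0.02 over all 4768. Large-subunit transcripts had a median of 0.25 and small-subunit ones 0.21, and those of snoRNA host genes 0.25 against 0.23 for the other genes. The positive median was thus spread over the types, the subunits and the gene structures, and it was also present with the rows of each gene summed, at 0.23 over 66 genes, 51 of them above 0, with 8 higher and 0 lower at an unadjusted p-value under 0.05. Those 8 are 12.1% of the genes. Over all 11345 genes and loci with their rows summed, the median was 0.03, 53.0% lay above 0, and 4.83% were higher and 3.85% lower.

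The shift was smaller without the libraries that hold Xist. Without 5 × FAD 1 and 2, the members' median was 0.03 and that of all transcripts was -0.02. With 1 library left out at a time the members' median stayed at 0.18 to 0.31 and that of all transcripts at 0.01 to 0.03. The count of higher members at an unadjusted p-value under 0.05 ran from 6 to 17. It was 6 when 5 × FAD 2, 9 when WT 1 and 11 when WT 2 was left out. The shares over all transcripts in those fits are not given here. Other markers also differed between the hippocampal genotypes. The 4 of 5 astrocyte markers with rows summed to 1453 to 1543 CPM in WT and 514 to 1182 in 5 × FAD without overlap, mostly through Slc1a3, a glutamate transporter, while Gfap was at 0 in the 3 WT libraries. Slc17a7, the vesicular glutamate transporter of excitatory neurons, counted 3902, 1666 and 1533 in WT against 14888, 4687 and 1777 in 5 × FAD, with overlap. The other neuron markers went both ways in hippocampal group mean CPM from WT to 5 × FAD. Snap25 (243 to 197), Syt1 (511 to 395), Map2 (463 to 349) and Nrgn (5.82 to 3.09) were lower, and Rbfox3 (10.1 to 13.0) was higher. The part of sex or of the cell types in the shift was not tested.

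**Figure D4:**
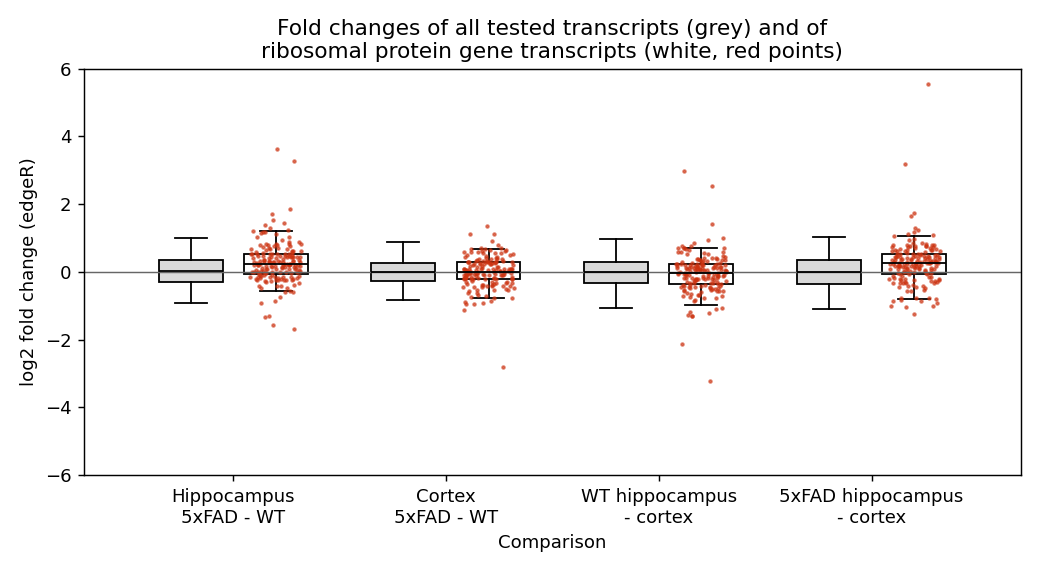
Log2 fold changes by edgeR on the y axis for the 4 pairwise comparisons on the x axis. Grey boxes are all tested transcripts, white boxes and red points are the ribosomal protein gene transcripts, boxes show the quartiles and median, and whiskers the 5th and 95th percentiles. The members' median is 0.24 for the hippocampal genotypes and 0.25 for the 5 × FAD regions, and 0.01 and -0.02 for the cortical genotypes and the WT regions.

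Among transcripts whose genotypes did not overlap in the hippocampus, those with the smallest p-values were from the large subunit. No overlap was asked for here and for the transcripts named by p-value further down, so it is not a further result. Rpl11, which with Rpl5 and the 5S ribosomal RNA binds Mdm2 and so links ribosome assembly to p53, had its processed transcript ENSMUST00000125726 (chr4:136049990-136052996) at 95, 74 and 71 counts in the WT hippocampus and 176, 115 and 196 in the 5 × FAD hippocampus. In the cortex the counts were 112, 119 and 81 in WT and 73, 74 and 71 in 5 × FAD. Neither pair overlapped, and the 2 regions lay in opposite order. Without 5 × FAD 1 and 2 the hippocampal value was 1.47. The log2 fold change between genotypes was 1.18 ± 0.29 in the hippocampus and -0.52 ± 0.18 in the cortex, with adjusted p-values of 0.547 and 0.912. The test of the difference between the regions gave 1.69 ± 0.33 with an adjusted p of 0.556 by edgeR, while DESeq2 called it with an adjusted p of 0.00573. The other rows of Rpl11 held 113 to 231 counts.

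In Rpl7a, whose protein lies in the large subunit, the processed transcript ENSMUST00000129673 had 11, 13 and 24 counts in the WT hippocampus and 31, 54 and 58 in the 5 × FAD hippocampus. The groups did not overlap, as the choice required, the log2 fold change was 1.70 ± 0.43 and the adjusted p was 0.564. Cortical counts lay between 16 and 28 in both genotypes. In Rpl13a, the retained intron ENSMUST00000210073 stood at 71, 140 and 153 in WT against 300, 241 and 200 in 5 × FAD (1.17 ± 0.35, adjusted p = 0.612), and ENSMUST00000210792 had 12, 18 and 21 and then 39, 65 and 23 (1.44 ± 0.45, adjusted p = 0.612). Both overlap Gm45713 on the same strand. The 1 transcript on the lower side was the retained intron ENSMUST00000135691 of Rpl34, a large-subunit gene, with 16, 12 and 12 in WT against 4, 7 and 3 in 5 × FAD (-1.35 ± 0.43, adjusted p = 0.612). It had 147 counts in 5 × FAD cortex 3 alone, against 5 to 14 in the other 5 cortical libraries.

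The same comparison was made in the cortex, where no shift was seen. None of 163 members was called by edgeR or DESeq2, against 12 of 21999 transcripts by edgeR, 0.0545%, and 102 by DESeq2. At an unadjusted p-value under 0.05, 3 members were higher and 4 were lower, 1.84% and 2.45%, beside 2.88% and 2.45% of all transcripts. The members' median was 0.01 and that of all transcripts 0.00. Without 5 × FAD 1 and 2 the members' median was -0.13, beside -0.04 over all transcripts.

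On the higher side were Rpl5 ENSMUST00000129944 (0.91 ± 0.32), Rpl12 ENSMUST00000134912 (0.57 ± 0.21) and Rpl7a ENSMUST00000143678 (0.69 ± 0.28), each with an adjusted p of 0.912. Rpl12, of the base of the ribosomal stalk, counted 28, 32 and 22 in the WT cortex against 44, 35 and 45 in the 5 × FAD cortex. On the lower side, the processed transcript ENSMUST00000216628 of Rpl14, a large-subunit gene, counted 188, 192 and 112 in WT against 98, 74 and 102 in 5 × FAD (-0.86 ± 0.20, adjusted p = 0.750). The retained intron ENSMUST00000122809 of Rps2, the small-subunit protein methylated by Prmt3, counted 379, 437 and 384 in WT against 381, 167 and 218 in 5 × FAD (-0.71 ± 0.27, adjusted p = 0.912). Neither pair overlapped in CPM.

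The regions were compared next within each genotype. These tests share their libraries with the genotype tests, so their values are given side by side and not as further evidence. In WT mice, none of 169 members was called, against 217 of 22007 transcripts, 0.986%. At an unadjusted p-value under 0.05, 5 members were higher in the hippocampus and 9 in the cortex, 2.96% and 5.33%, beside 6.49% and 6.36% of all transcripts. The median was -0.02 over the members and -0.01 over all transcripts. DESeq2 called 2 of the 169, Rps27l ENSMUST00000143044 and Rpl5 ENSMUST00000140659, and 743 of all 22007 transcripts.

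Rps27l encodes a p53-induced relative of Rps27. Its processed transcript ENSMUST00000143044 (chr9:66946355-66949516) had 74, 53 and 42 counts in the WT hippocampus and 4, 12 and 3 in the WT cortex. The groups did not overlap, and the log2 fold change of 2.99 ± 0.48 had an adjusted p of 0.0534 by edgeR, and of 5.5e-05 by DESeq2. With the rows of the gene summed it was 3.03 ± 0.46 with an adjusted p of 0.0206 by edgeR. This was the single call among 65 summed ribosomal protein genes in WT, beside 400 of all 11431 genes and loci. In 5 × FAD mice the same transcript had 3, 47 and 2 counts in the hippocampus and 3, 23 and 1 in the cortex, so the libraries numbered 2 stood apart in both regions and the groups overlapped.

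Rpl5 carries the 5S ribosomal RNA with Rpl11 into the large subunit. Its retained intron ENSMUST00000140659 (chr5:107904114-107908050), which holds Snord21, had 107, 136 and 104 counts in the WT hippocampus, 49, 57 and 53 in the WT cortex, 66, 91 and 81 in the 5 × FAD hippocampus and 57, 42 and 45 in the 5 × FAD cortex. The hippocampal libraries lay above the cortical ones in both genotypes without overlap. The log2 fold change was 0.94 ± 0.20 in WT and 0.73 ± 0.24 in 5 × FAD, with adjusted p-values of 0.108 and 0.420 by edgeR, and 0.0388 by DESeq2 in WT. The other rows of the gene held 93 to 264 counts.

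The other WT transcripts had larger adjusted p-values. The processed transcript ENSMUST00000147782 of Rps27a, a gene that encodes ubiquitin fused to the ribosomal protein, had 71, 54 and 21 counts in hippocampus and 20, 16 and 12 in cortex (1.42 ± 0.46, adjusted p = 0.271), with 92 in 5 × FAD cortex 1. The X-linked Rpl36a had its retained intron ENSMUST00000172023 at 64, 112 and 77 in hippocampus and 151, 174 and 88 in cortex (-0.85 ± 0.27, adjusted p = 0.265). Rpl23a, whose protein lies near the exit of the peptide tunnel, had ENSMUST00000127270 at 51, 16 and 34 and then 84, 77 and 51 (-1.22 ± 0.42, adjusted p = 0.299), and this transcript overlaps Tlcd1 on the other strand. The retained intron ENSMUST00000199031 of Rps27 had 5 to 8 counts in hippocampus and 10 to 16 in cortex (-1.10 ± 0.34, adjusted p = 0.254). Apart from these, the higher and lower transcripts included Rpl12 ENSMUST00000134912 (0.84 ± 0.28) and Rpl11 ENSMUST00000125726 (-0.54 ± 0.18).

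In 5 × FAD mice, 1 of 171 members was called between the regions, 0.585%, against 4 of 22016 transcripts, 0.0182%. It was Rpl9 ENSMUST00000128074, a retained intron of 1729 bases at chr5:65388917-65390991 that keeps 2 introns whole, from a gene of the large subunit. The counts were 48, 65 and 44 in the 5 × FAD hippocampus and 1, 1 and 1 in the 5 × FAD cortex. The log2 fold change was 5.55 ± 0.39 with an adjusted p of 0.0339 by edgeR and of 1.7e-06 by DESeq2. As the cortex held 3 counts in all against 157, the ratio was 52.8, with an exact Clopper-Pearson interval of 17.7 to 259 at 95% that covers counting error only. In WT mice the same transcript had 1, 1 and 67 counts in the hippocampus and 1, 64 and 31 in the cortex. Every library thus held either 1 count or 31 to 67, and both states occurred in both WT regions. The other rows of Rpl9 held 64 to 130 counts in the 12 libraries. The edgeR call was lost when any 1 of 5 of the 6 libraries was left out, with adjusted p-values of 0.0708 to 0.191. The 5 were 5 × FAD hippocampus 1 and 2 and the cortical libraries. DESeq2 called 2 members between these regions, this one and Rpl6 ENSMUST00000138621, and 366 of all 22016 transcripts.

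At an unadjusted p-value under 0.05, 12 members were higher in the 5 × FAD hippocampus and 1 in the cortex, 7.02% and 0.585%, beside 4.66% and 4.72% of all transcripts. The median was 0.25 over the members and 0.01 over all transcripts, 0.27 over member retained introns against 0.04 over all retained introns, and 0.25 over member processed transcripts against -0.02. The hippocampal 5 × FAD libraries are those of the genotype comparison, so the shift seen there enters here again. With 1 library left out at a time the median ran from 0.10, without 5 × FAD hippocampus 1, to 0.33, and the count of higher members was 6 without 5 × FAD cortex 3.

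Besides Rpl9, the smallest p-values on the higher side among transcripts whose regions did not overlap were those of Rpl11 ENSMUST00000125726 (1.17 ± 0.29, adjusted p = 0.296) and of 2 low transcripts. Rpl6 ENSMUST00000138621, described below, had a smaller one than the second of these, but its regions overlapped (3.19 ± 0.90, adjusted p = 0.357 by edgeR and 0.00605 by DESeq2). Rplp0, the central protein of the ribosomal stalk, had its single row ENSMUST00000155584 at 25, 22 and 17 counts in hippocampus and 4, 8 and 8 in cortex (1.65 ± 0.43, adjusted p = 0.307). Rps6 ENSMUST00000130001 had 33, 27 and 33 and then 16, 13 and 19 (0.97 ± 0.30, adjusted p = 0.394). No overlap between the regions was the condition for naming these 3. On the lower side stood the processed transcript ENSMUST00000137811 of Rpl24, a protein of the subunit interface, with 99, 79 and 96 and then 190, 156 and 134 counts (-0.80 ± 0.24, adjusted p = 0.394). It shares its strand and bases with Gm28037.

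An interaction fit over all 12 libraries asked whether the 2 regions differed in their genotype effect. None of 187 members was called by edgeR, against 2 of 24632 transcripts, 0.00812%. The genotype log2 fold change was higher in the hippocampus for 10 members and higher in the cortex for 3 (unadjusted p-value under 0.05). This refers to the signed value and not to its size. The shares were 5.35% and 1.60%, beside 3.32% and 3.56% of all transcripts. The median was 0.22 over the members and -0.01 over all transcripts. DESeq2 called 2 of the 187, Rpl11 ENSMUST00000125726 and Rpl6 ENSMUST00000138621, and 105 of all 24632 transcripts.

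Several transcripts, chosen after their values were seen, stood at low counts in some libraries of a group and at high counts in others. Rpl6, a large-subunit gene, had its retained intron ENSMUST00000138621 (chr5:121208196-121208966) at 19, 34 and 24 counts in the WT hippocampus, 432, 31 and 379 in the 5 × FAD hippocampus, 603, 26 and 29 in the WT cortex and 30, 35 and 28 in the 5 × FAD cortex. In 3 of the 12 libraries it stood at 379 to 603 and in the other 9 at 19 to 35, while the other rows of the gene held 61 to 174. The log2 fold change in the hippocampus was 3.63 ± 0.93 with an adjusted p of 0.564 by edgeR and 0.00218 by DESeq2, although the groups overlapped.

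Rpl18, also of the large subunit, spread widely too, with the retained intron ENSMUST00000211425 (chr7:45719262-45720785) at 3, 68 and 3 counts in the WT hippocampus, 92, 263 and 289 in the 5 × FAD hippocampus, 1, 274 and 33 in the WT cortex and 0, 110 and 156 in the 5 × FAD cortex. The hippocampal genotypes did not overlap (3.28 ± 1.18, adjusted p = 0.617), but the cortical libraries ran from 1 to 274 in WT and from 0 to 156 in 5 × FAD. The other rows of this gene held 13 to 50. Rpl22, a gene whose loss is known to impair T cell development, had its processed transcript ENSMUST00000142735 at 278 counts in 5 × FAD cortex 2 and at 0 to 8 in the other 11 libraries. Of the 119 members that reached 40 counts in some library, 21 from 18 genes had a highest count at least 10 times the lowest, with the lowest taken as 3 or more, which is 17.6%. The share was 20.7% among all 16316 such transcripts, so this spread was not particular to the ribosomal protein genes.

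**Figure D5:**
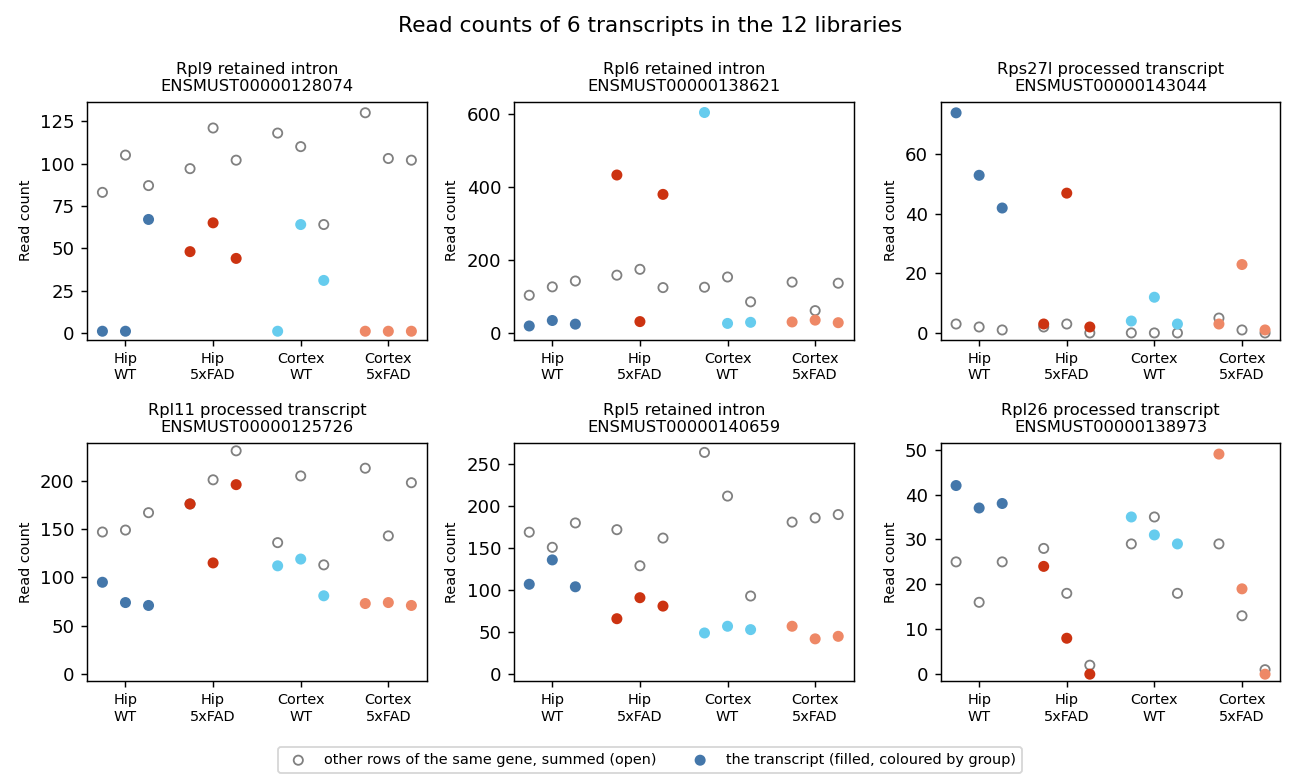
Read counts on the y axis of 6 transcripts in the 12 libraries, grouped by region (Hip, hippocampus) and genotype on the x axis; filled points are the transcript and open points the summed other rows of its gene. Rpl9 is at 1 or at 31 to 67 and Rpl6 at 19 to 35 or at 379 to 603 within groups, and the Rpl5 points of the hippocampus, 66 to 136, lie above those of the cortex, 42 to 57.

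Rpl26, whose protein binds the p53 mRNA, was at or near 0 in the libraries numbered 3 of the 5 × FAD mice in both regions. Its processed transcript ENSMUST00000138973 had 42, 37 and 38 counts in the WT hippocampus, 24, 8 and 0 in the 5 × FAD hippocampus, 35, 31 and 29 in the WT cortex and 49, 19 and 0 in the 5 × FAD cortex. The gene's other transcript, ENSMUST00000134403, had 25, 16 and 25, then 28, 18 and 2, then 29, 35 and 18, and then 29, 13 and 1. Across the 6 numbered WT and 5 × FAD libraries, Pearson's r between the regions was 0.91 and 0.90 for these 2 transcripts. Over 175 members with a mean of 10 counts or more the median of this r was 0.00, and over 22096 transcripts it was 0.03. An r over 0.85 was found in 3 of these members, 1.71%, and in 590 of these transcripts, 2.67%, so such values were not particular to the members. This is a description, and whether a number marks the same mouse in both regions is not stated.

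The X-linked members were described apart because the libraries differed in Xist. Rpl10, Rps4x, Rpl36a and Rpl39 had 15 rows, 12 of them tested in the hippocampus, with a median log2 fold change of 0.04. At an unadjusted p-value under 0.05, 1 (8.33%) was higher and 0 lower in 5 × FAD, beside 4.08% and 3.5% of all transcripts. In the cortex the median was -0.07 over 8 rows. The leading transcript of Rpl10, a late-joining large-subunit protein, had 85, 134 and 76 counts in the WT hippocampus and 169, 160 and 116 in the 5 × FAD hippocampus, and that of Rps4x had 26, 34 and 22 and then 39, 26 and 30. Both pairs overlapped in CPM. Rpl39 ENSMUST00000138799 stayed between 6 and 19 counts in the 12 libraries.

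Other lists were read by count, beside the 4.08% higher and 3.5% lower of all transcripts in the hippocampal genotypes. The 5 genes known for splicing control by their own proteins, Rpl3, Rpl10a, Rpl12, Rpl30 and Rps13, had 22 rows and a hippocampal genotype median of 0.20 over 16 tested rows, with 2 (12.5%) higher and 0 lower at an unadjusted p-value under 0.05. The genes mutated in Diamond-Blackfan anaemia, an inherited red cell aplasia, had rows for 9 of 10 genes, and 2 of 29 tested rows (6.90%) were higher and 0 lower, with a median of 0.19. Of the 5 tissue-restricted relatives, Rpl22l1 and Rps27l had rows. None of these rows was called by edgeR in any of the 5 tests.

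Outside the ribosomal protein genes, 6 of 42 tested rows (14.3%) of translation factors of the TOP mRNA class were higher and 0 lower in the 5 × FAD hippocampus at an unadjusted p-value under 0.05, with a median of 0.16. For ribosome biogenesis factors it was 4 (12.9%) higher and 0 lower of 31, with a median of 0.06, and for mitochondrial ribosomal proteins 2 and 2 of 93 (2.15% each), with a median of -0.03. Genes of mTOR and growth signalling had 0 and 0 of 23, with a median of 0.11. The single call of these lists in the 5 tests was in the WT regions, the retained intron ENSMUST00000127899 of Rptor, a subunit of mTOR complex 1, with 53, 63 and 33 counts in hippocampus and 198, 159 and 164 in cortex (adjusted p = 0.0363 by edgeR).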

How the data were processed

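RNA was sequenced from 12 libraries, 3 in each of 4 groups taken from the labels. The authors deposited raw counts per transcript, which are not normalized. Per the labels, Trimmomatic 0.36 and edgeR were used. The aligner, the counting program, its strand setting and the build are not given in the sources used here, so reads shared with the 260 annotated pseudogenes named after 49 of these genes, or with overlapping genes, could not be assigned. All 12 columns were used and 0 left out. Types and positions came from GENCODE M21 (GRCm38), which held 45372 of 45597 Ensembl identifiers.

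Counts were tested on the whole table with edgeR 4.0.16 (filterByExpr, TMM, glmQLFit, glmQLFTest) in R 4.3.3, on the 6 libraries of each comparison and on 12 for the interaction, with Benjamini-Hochberg adjustment over all transcripts tested and a threshold of 0.05. The filter kept 163 to 187 members, so counts and medians over them leave out rows low in both groups. The scripts were tested on simulated data. The series' design text gives 3 mice per group, each sampled in both regions, and the titles do not say which library is which mouse. P-values set a difference against the spread between the libraries of a group, an estimate that partly draws on all transcripts. The main region and interaction fits took the libraries as independent and did not pair them by mouse. Replicate pairs differed beyond sampling noise (chi-square per degree of freedom 20.8 to 33.0).

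Named transcripts were those called, up to 4 per direction and comparison with the smallest unadjusted p and no overlap, the leading transcripts of the 10 highest genes, and those of the X-linked genes. Of the 10 highest genes, 2 are not reported here. Members and lists were chosen with earlier results of these data known. Alternatives were DESeq2 1.42.0, other scalings and filters, the replicate number as a block, 1 fit of 12 libraries, summed rows and left-out libraries. Python 3.11.15 and pandas 2.3.3 were used for tables.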

Additional observations from a re-analysis of the deposited data

How the results depend on the processing

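edgeR called 0 members in both genotype tests, in the WT regions and in the interaction, and 1 in the 5 × FAD regions. DESeq2 called 1 in the hippocampal genotypes, 2 in the WT regions, 2 in the 5 × FAD regions and 2 in the interaction. Over all transcripts, DESeq2 called 127 of 21894, 743 of 22007, 366 of 22016 and 105 of 24632 in the same order. With the rows of a gene summed, 1 was called in the WT regions and 0 in the 5 × FAD regions. Over all summed genes and loci, 400 of 11431 and 22 of 11404 were called. The 5 × FAD call was also lost, at 0, without a filter, with all 12 libraries in one fit and with the replicate block. Leaving out 1 library gave 0 to 1. The filter of at least 10 counts in every library also gave 0, but it removed the called Rpl9 transcript, so that fit did not test it. At an unadjusted p-value under 0.05, 18 members were higher in the 5 × FAD hippocampus. They were 11 with the replicate block, 8 with summed rows and 6 to 17 with 1 library left out. The 12 higher in the 5 × FAD regions were 4 with summed rows and 6 to 15 with 1 library left out. Shares over all transcripts in the block and left-out fits are not given here. The cause was not tested, beyond fewer rows where rows were summed and fewer libraries where some were left out. Same-numbered libraries of the 2 regions deviated together weakly, with correlations of 0.018 to 0.023 in WT and 0.038 to 0.151 in 5 × FAD. Between the genotypes, where equal numbers are different mice, they were -0.023 to 0.014 in hippocampus and -0.040 to -0.021 in cortex. The region values were all positive but small, so whether the numbers pair samples was not settled. The replicate block gave 0 calls in all 5 tests. Scaling by library size moved the hippocampal median of all transcripts from 0.02 to 0.09 and that of the members from 0.24 to 0.31. For the 24 results on single transcripts, 307 of 317 alternative fits kept both direction and side of the threshold. Of the others, 8 lost the Rpl9 call and 2 gained a call by DESeq2, and 0 changed direction. The transcripts were picked for groups without overlap, and all but Rpl9 were not called. This tally was therefore largely set by the choice and does not measure how stable the results are. With 3 libraries per group, differences smaller than the spread between libraries were not detectable.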
